A study of Mus musculus with 6 samples.

Results

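The genes described here make cholesterol or handle it inside the cell: 18 enzymes of its synthesis, 4 genes that control the SREBP transcription factors, 3 carriers within the cell and 4 genes of the LXR pathway, which disposes of sterol. The 29 genes were taken by symbol from a fixed list, which was chosen with earlier results of these data known. Of these, 28 are among the 21686 genes of the deposited table. Abcg1 was not analysed here. RNA came from MC3T3-E1 Subclone 14 cells, a clonal mouse line of osteoblast precursors, so every sample derives from 1 clone. The control group received 100 µL of PBS, the dexamethasone group 10 µM dexamethasone, a synthetic glucocorticoid, and the dexamethasone + EPC-EVs group 10 µM dexamethasone with 100 µg of extracellular vesicles from endothelial progenitor cells of mouse bone marrow, each for 72 hours. The design text of the series instead names fibroblasts and a shorter treatment, and the sample labels were followed here. There were 2 libraries per group, described as biological replicates, no group with EPC-EVs alone, and no genetic change named in the labels. The design asks what dexamethasone does to osteoblast RNA and what EPC-EVs do in its presence.

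Cells build cholesterol from acetyl-CoA through mevalonate, farnesyl diphosphate, squalene and lanosterol. When membranes of the endoplasmic reticulum are low in sterol, the escort protein Scap carries the precursor encoded by Srebf2 to the Golgi, where proteases release a transcription factor that switches on the enzymes of the pathway. Insig1 and Insig2 hold Scap back when sterol is plentiful. The oxysterol receptors called LXR act in the opposite situation and switch on export genes such as Abca1. In bone, the pathway is known as the target of the nitrogen-containing bisphosphonates, which block the product of Fdps.

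Total counts were 6126888 and 5146760 in control, 6583735 and 6575094 in dexamethasone, and 12864009 and 13182014 in dexamethasone + EPC-EVs, so a count of 0 allowed between 0.232 and 0.602 CPM, counts scaled to the library total, and this limit covers counting error only. The dexamethasone + EPC-EVs libraries stood apart from the other 4 in composition. Mitochondrially encoded genes took 0.465% and 0.727% of their counts, against 5.55% to 8.62% elsewhere, and the noncoding RNA Gm26917 took 5.88% and 6.69%, against 0.252% to 1.14%. No label gives a library batch, so a batch and the treatment cannot be told apart. Of 11 osteoblast markers, Col1a1, Col1a2, Spp1 and Runx2 were abundant, while 5, among them Alpl, Bglap and Ibsp, lay under 10 CPM in every library. Col1a1 and Col1a2 were higher with EPC-EVs, at 6806 to 11583 CPM against 2229 to 2912 in the other 4 libraries, and Spp1 was lower, at 6062 and 4336 CPM against 10359 to 11403. The summed CPM of these markers was 15185 to 16817 in control, 16297 to 16502 in dexamethasone and 20606 to 26642 in dexamethasone + EPC-EVs.

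Sterol synthesis genes were higher with EPC-EVs and dexamethasone than with dexamethasone alone along the whole pathway. All 18 enzymes were called higher, and of the 28 genes 24 were called higher, 1 was called lower, which was the efflux transporter Abca1, and 3 were not called, which were Insig2, Npc1 and Mylip. Calls rest on the quasi-likelihood test of edgeR and on p-values adjusted by Benjamini and Hochberg's method over every gene tested, with 0.05 as the limit. Among the 13556 genes tested, 20.9% were called higher and 18.9% lower. The median log2 fold change was 1.60 over the 28 genes and 0.01 over all genes tested. In 24 of the 28 genes both dexamethasone + EPC-EVs libraries lay above both dexamethasone libraries, against 37.3% of all genes, and in 2 both lay below, against 35.2%. With mitochondrially encoded genes left out, or with Gm26917 left out, a setting chosen after seeing the data, the counts were again 24 higher and 1 lower. The plot of CPM by library shows the 28 genes by role. In these bulk libraries, fewer cells of a type and less RNA per cell cannot be told apart.

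**Figure D1:**
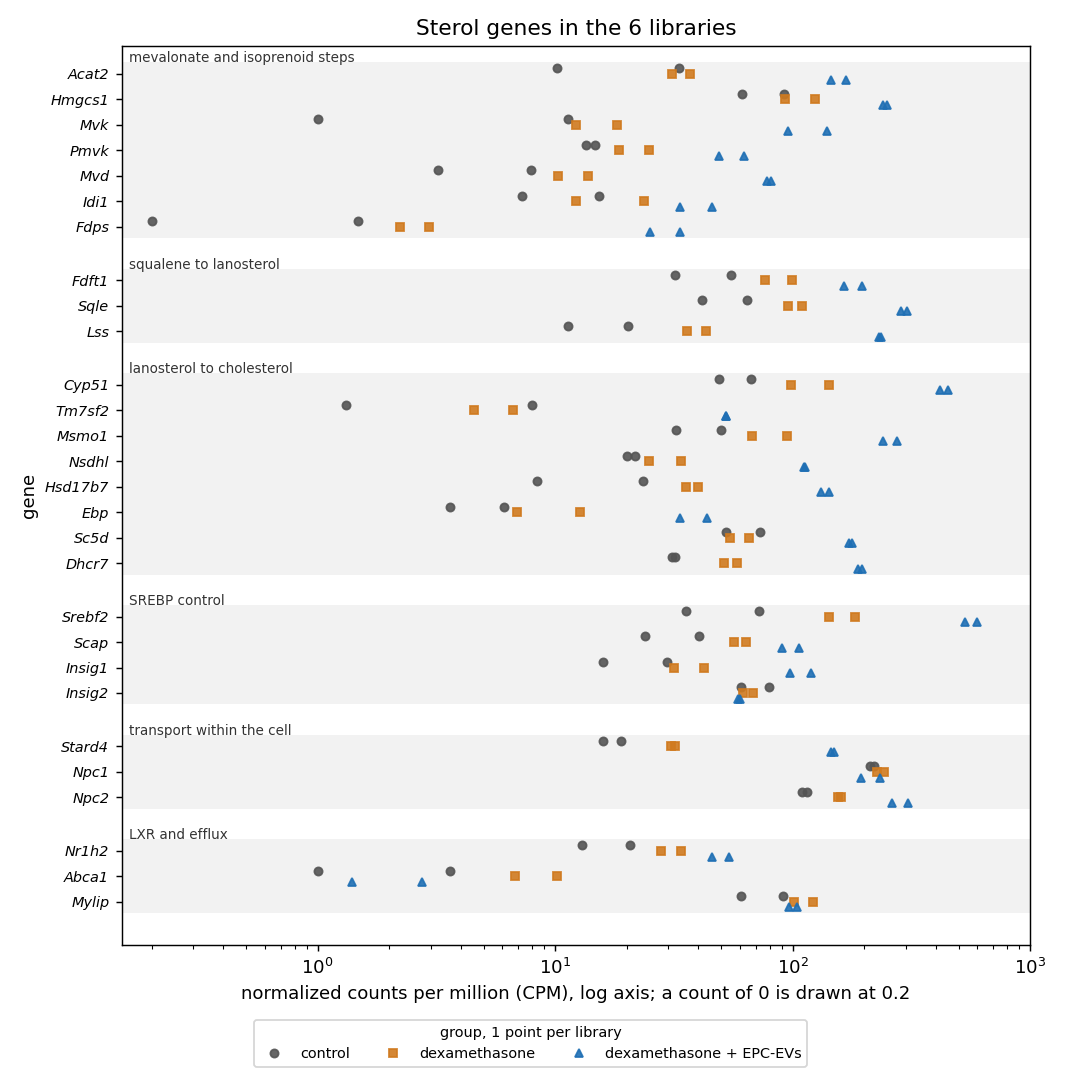
CPM of each of the 28 genes on a log axis, with 1 point per library, by role in the pathway and coloured by group, on library totals after TMM normalization, and with the count of 0 of Fdps in control drawn at 0.2 CPM. The dexamethasone + EPC-EVs points lie to the right of both dexamethasone points in 24 genes, to the left in Abca1 and Insig2, and among or across them in Npc1 and Mylip.

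Because the enzymes moved together, their promoters were searched for the sterol regulatory element, the site that SREBP binds. RefSeq windows on GRCm38.p6, from 250 bases before to 50 bases after a gene's start, were at hand for 23 of the 28 genes, in 29 windows, and not for Fdps, Fdft1, Sqle, Stard4 and Npc1. The element spelled TCACNCCAC, on either strand, stood in 1 of the 29 windows, that of Hmgcs1, and in 1.24% of all 32851 windows. Shorter spellings, chosen after these counts were seen and overlapping each other, were TCACNCCA, which stood in 3 of the 29 windows (Hmgcs1, Msmo1 and Srebf2) and 4.36% of all, and CACNCCAC, which stood in 3 (Acat2, Hmgcs1 and Insig1) and 6.24% of all. The windows of 3 genes are shown, an enzyme, the transcription factor gene itself and a gene that restrains it, with the matching letters in capitals. They are Hmgcs1 (chr13:119690101-119690400, plus strand), Srebf2 (chr15:82147019-82147318, plus strand) and Insig1 (chr5:28071162-28071461, plus strand), each written 5′ to 3′ on the strand of the gene.
Hmgcs1: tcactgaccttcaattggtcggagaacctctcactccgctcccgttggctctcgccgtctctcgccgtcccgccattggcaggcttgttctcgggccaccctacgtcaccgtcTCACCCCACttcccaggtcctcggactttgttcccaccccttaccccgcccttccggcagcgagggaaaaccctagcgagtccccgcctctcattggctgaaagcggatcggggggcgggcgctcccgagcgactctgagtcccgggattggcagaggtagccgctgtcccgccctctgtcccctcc
Srebf2: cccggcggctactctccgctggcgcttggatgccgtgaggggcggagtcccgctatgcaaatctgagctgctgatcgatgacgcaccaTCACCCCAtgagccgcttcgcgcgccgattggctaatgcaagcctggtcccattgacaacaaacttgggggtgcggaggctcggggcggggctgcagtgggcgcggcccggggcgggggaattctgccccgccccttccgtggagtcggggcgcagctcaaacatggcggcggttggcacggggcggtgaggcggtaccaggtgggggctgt
Insig1: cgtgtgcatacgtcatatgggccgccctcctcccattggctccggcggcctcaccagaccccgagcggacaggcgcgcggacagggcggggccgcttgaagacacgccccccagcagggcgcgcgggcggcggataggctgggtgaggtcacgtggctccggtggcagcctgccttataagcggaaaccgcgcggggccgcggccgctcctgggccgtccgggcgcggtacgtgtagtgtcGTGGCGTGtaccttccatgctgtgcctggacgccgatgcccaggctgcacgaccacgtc
The matches begin at -137, -162 and -9 from the RefSeq start, and that of Insig1 is on the opposite strand. None overlaps a CCAAT box, the site of the factor NF-Y, or a GC box, the site of Sp1, in these windows. The CCAAT box, spelled CCAAT and searched on both strands, stood in 19 of the 29 windows and 37.4% of all, and the GC box, spelled GGGCGG, in 24 of the 29 and 35.7% of all. The letters AGAACA, which are only part of the glucocorticoid receptor response motif, stood in 8 of the 29 windows and 19% of all. The whole motif was not searched. A match is a run of letters, and binding was not measured here.

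The 7 genes of the mevalonate and isoprenoid steps were all called higher with EPC-EVs. Their log2 fold changes over dexamethasone had a median of 2.18 and a range of 1.13 to 3.48. Fdps, which makes farnesyl diphosphate (ENSMUSG00000059743.12, chr3:89093588-89101959, minus strand), had 1.48 and 0 CPM in control, 2.21 and 2.95 in dexamethasone and 25.2 and 33.6 in dexamethasone + EPC-EVs. The 0 in control replicate 2 allows up to 0.602 CPM, and the values rest on 9 and 0, 15 and 20, and 320 and 435 counts. The 3 groups did not overlap, and Fdps rose over dexamethasone by a log2 fold change of 3.48 ± 0.359 (SE, n = 2 per group, edgeR adjusted p = 2.58e-05), the highest of the 28 genes except without dexamethasone replicate 1, where Tm7sf2 was higher. In GENCODE vM21 Fdps shares exons with Gm43738 on its own strand, and its transcripts match processed pseudogenes, with 98.87% identity over 1062 bases in Gm3571, so its level is uncertain. Idi1, the isomerase that balances the pair of C5 isoprenoids (ENSMUSG00000058258.14, chr13:8885501-8892451, plus strand), had 15.3 and 7.22 CPM in control, 23.6 and 12.3 in dexamethasone, and 45.9 and 33.5 in dexamethasone + EPC-EVs. It rose by 1.13 ± 0.305 (SE, edgeR adjusted p = 0.0119). That call ended without dexamethasone replicate 2 (log2 fold change 0.74, adjusted p = 0.113), and replicate 1 of dexamethasone + EPC-EVs decided it too (adjusted p = 0.0505 when left out), and a processed pseudogene, Gm13502, matches Idi1 over 684 bases.

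The other 5 genes of these steps cover the path from acetyl-CoA to isopentenyl diphosphate. Acat2, the cytosolic thiolase that joins acetyl-CoA, had 36.9 and 31.0 CPM in dexamethasone and 167 and 144 in dexamethasone + EPC-EVs. Its log2 fold change was 2.18, and its transcript is 97.7% identical to that of Acat3 over 1477 bases and 98.7% identical over 445 bases to that of Tcp1, which had more counts than Acat3. Hmgcs1, the HMG-CoA synthase whose promoter is printed above, had 124 and 92.5 CPM in dexamethasone and 240.7 and 251 in dexamethasone + EPC-EVs, which is 1.17 as a log2 fold change. Per length, Hmgcs1 was the highest of the 7 in control (16.3 ± 4.35 FPKM, SD, n = 2) and in dexamethasone (24.3 ± 4.96), where FPKM are counts scaled to gene length and library total, and in dexamethasone + EPC-EVs it had 52.7 ± 1.27 FPKM against 60.3 ± 6.46 of Acat2. Mvk, the kinase that phosphorylates mevalonate, went from 18.3 and 12.3 CPM in dexamethasone to 139 and 95.4, a log2 fold change of 2.92. Pmvk, the kinase of the next step, went from 18.6 and 24.9 CPM to 48.9 and 62.5, which is 1.34 on the log2 scale. Once each library was corrected for GC content and transcript length it was 0.67 and the call ended (edgeR adjusted p = 0.0622). Pmvk was called higher again when the replicate number was added to that fit as a block. Mvd, the decarboxylase that follows, went from 13.7 and 10.3 CPM to 78.0 and 80.9, which is 2.71. Under that correction Mvk was at 2.33 and Mvd at 1.88. In all 5 genes both libraries with EPC-EVs lay above both dexamethasone libraries. Mvk had 11.4 and 1.0 CPM in the control libraries, so the level of Mvk in control was poorly fixed.

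The 3 genes from squalene to lanosterol were called higher too, with a median log2 fold change of 1.51. Lss, the cyclase that folds oxidosqualene into lanosterol (ENSMUSG00000033105.12, chr10:76531588-76557138, plus strand), had 11.4 and 20.3 CPM in control, 43.4 and 36.0 in dexamethasone, and 231 and 235 in dexamethasone + EPC-EVs. The groups were separate, and the rise over dexamethasone was 2.53 ± 0.154 on the log2 scale (SE, n = 2 per group, edgeR adjusted p = 8.23e-07). Fdft1, the squalene synthase (ENSMUSG00000021273.10, chr14:63145150-63179578, minus strand), had 32.1 and 54.8 CPM in control, 99.0 and 76.6 in dexamethasone and 196 and 165 in dexamethasone + EPC-EVs. Its log2 fold change over dexamethasone, 1.02 ± 0.163 (SE, edgeR adjusted p = 0.000492), was the smallest of the 18 enzymes in this fit, but not with each library corrected for GC content and transcript length or with any 1 library left out. Fdft1 overlaps exons of Ctsb on the other strand, and since the sources used here do not give the strand setting of the counts, reads of genes that overlap cannot be told apart. Sqle, the epoxidase between the pair, went from 109 and 96.1 CPM in dexamethasone to 287 and 304, a log2 fold change of 1.51.

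All 8 enzymes from lanosterol to cholesterol were called higher, with a median log2 fold change of 1.83 and a range of 1.53 to 3.21. Tm7sf2, a sterol reductase of the endoplasmic reticulum and nuclear membrane (ENSMUSG00000024799.14, chr19:6062821-6068373, minus strand), had 1.32 and 8.02 CPM in control, 6.64 and 4.58 in dexamethasone, and 52.6 and 52.5 in dexamethasone + EPC-EVs. Control and dexamethasone overlapped, and both dexamethasone + EPC-EVs libraries lay far above them, with a log2 fold change over dexamethasone of 3.21 ± 0.267 (SE, n = 2 per group, edgeR adjusted p = 6.44e-06). Tm7sf2 shares exon sequence with Vps51 on the same strand, and reads there could not be told apart by counting. Sc5d, the desaturase that acts on lathosterol (ENSMUSG00000032018.14, chr9:42251595-42264256, minus strand), had 52.4 and 72.6 CPM in control, 65.7 and 54.3 in dexamethasone, and 172 and 179 in dexamethasone + EPC-EVs. Its log2 fold change over dexamethasone was 1.53 ± 0.153 (SE, edgeR adjusted p = 2.1e-05).

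Cyp51, the demethylase that takes lanosterol onward, had 417 and 449 CPM in dexamethasone + EPC-EVs, against 143 and 98.6 in dexamethasone and 67.0 and 49.2 in control. Its log2 fold change over dexamethasone was 1.83, and it overlaps exons of Akap9 on the other strand. Msmo1, Nsdhl and Hsd17b7 act in turn to remove the methyl groups at carbon 4 of the ring. Msmo1, the oxidase, had 94.3 and 67.3 CPM in dexamethasone and 241 and 276 with EPC-EVs, a log2 fold change of 1.66. Nsdhl, the dehydrogenase, had 33.9 and 24.8 CPM and then 112 CPM in both libraries with EPC-EVs, which is 1.91. Hsd17b7, the reductase of the last of these reactions, had 35.6 and 40.1 CPM and then 143 and 131, which is 1.84. None of these groups overlapped. Ebp, an isomerase that shifts a double bond, went from 12.7 and 6.94 CPM in dexamethasone to 43.8 and 33.7, a log2 fold change of 1.96. Dhcr7, the reductase of the last step, went from 58.6 and 51.7 CPM in dexamethasone to 189 and 195, a log2 fold change of 1.78.

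Of the 4 SREBP control genes, 3 were called higher and Insig2 was not called. Srebf2, the gene of the transcription factor (ENSMUSG00000022463.7, chr15:82147181-82205379, plus strand), had 72.1 and 35.5 CPM in control, 183 and 142 in dexamethasone, and 596 and 534 in dexamethasone + EPC-EVs. The 3 groups did not overlap, and the rise over dexamethasone was 1.78 ± 0.145 on the log2 scale (SE, n = 2 per group, edgeR adjusted p = 5.8e-06), and 1.12 once each library was corrected for GC content and transcript length. Insig1, the retention factor whose own gene SREBP activates, went from 42.5 and 31.6 CPM to 97.7 and 120.0, a log2 fold change of 1.54. Scap, the escort of the precursor, went from 63.5 and 56.5 CPM to 90.2 and 107, a log2 fold change of 0.70 (edgeR adjusted p = 0.00609). The rise of Scap depended on the processing: once each library was corrected for GC content and transcript length it was -0.057, and without dexamethasone replicate 2 its adjusted p was 0.0795.

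Insig2, the second retention factor (ENSMUSG00000003721.14, chr1:121304353-121332589, minus strand), had 79.8 and 60.6 CPM in control, 68.3 and 61.7 in dexamethasone, and 60.1 and 59.1 in dexamethasone + EPC-EVs. Both dexamethasone + EPC-EVs libraries lay just under the other 4, and the log2 fold change over dexamethasone was -0.14 ± 0.169 (SE, n = 2 per group, edgeR adjusted p = 0.534). The deposited transcript table, which holds chromosome 1, lists 24 transcripts of Insig2. Of its 4 annotated transcripts with 6 exons, the longest had 9.04 FPKM in control replicate 1, was listed at 0 in control replicate 2, and had 11.99 and 8.98 FPKM in dexamethasone and 13.5 and 12.4 in dexamethasone + EPC-EVs. The other 3 summed to 5.52 and 6.15 FPKM in control, 0.17 and 7.49 in dexamethasone, and 0.52 and 0.49 in dexamethasone + EPC-EVs. The 4 together summed to 14.6 and 6.15, 12.2 and 16.5, and 14.0 and 12.9 FPKM, so the libraries with EPC-EVs lay between the dexamethasone libraries. A further 7 fragments with 1 exon, which the authors assembled from the reads, lie on the same strand within the introns. Their median was 8.90 and 9.82 FPKM in control, 8.63 and 8.47 in dexamethasone, and 3.13 and 2.63 in dexamethasone + EPC-EVs. These medians were lowest in the libraries with EPC-EVs, though not every fragment was, as the plot of Insig2 in the gene and transcript tables shows. The 13 annotated transcripts together summed to 42.4 and 15.9 FPKM in control, 25.6 and 31.2 in dexamethasone, and 18.2 and 21.2 in dexamethasone + EPC-EVs. These transcript values are a description, with no test.

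**Figure D2:**
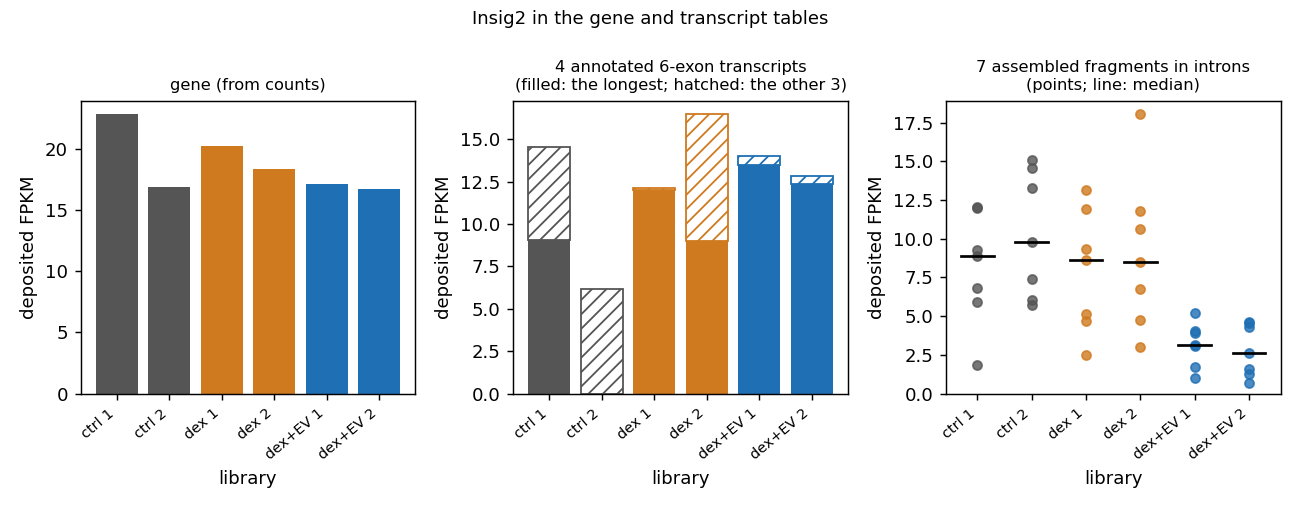
Insig2 in the 6 libraries as deposited FPKM: the gene value made from counts (left), the sum of 4 annotated 6-exon transcripts (middle, with the longest filled, listed at 0 in control replicate 2, and the other 3 hatched) and 7 assembled fragments within introns (right, 1 point per fragment, with a line at the median). The fragments have medians of 3.13 and 2.63 FPKM in dexamethasone + EPC-EVs and of 8.47 to 9.82 in the other 4 libraries.

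Of the 3 carriers within the cell, Stard4 and Npc2 were called higher and Npc1 was not called. Stard4, a soluble protein that moves cholesterol between membranes (ENSMUSG00000024378.9, chr18:33199355-33213862, minus strand), had 18.9 and 15.8 CPM in control, 30.7 and 32.0 in dexamethasone, and 145 and 149 in dexamethasone + EPC-EVs. The groups were separate, and the log2 fold change over dexamethasone was 2.21 ± 0.159 (SE, n = 2 per group, edgeR adjusted p = 2.6e-06). Npc1 and Npc2 act together to release cholesterol from the lysosome. Npc2, the soluble partner, went from 155 and 160.1 CPM in dexamethasone to 305 and 263, a log2 fold change of 0.83. Npc1, the membrane partner (ENSMUSG00000024413.13, chr18:12189692-12236400, minus strand), had 211 and 219.9 CPM in control, 227 and 243 in dexamethasone, and 194 and 234 in dexamethasone + EPC-EVs. The dexamethasone + EPC-EVs libraries lay on either side of the control libraries, and 1 lay within the dexamethasone range. Its log2 fold change over dexamethasone was -0.15 ± 0.140 (SE, edgeR adjusted p = 0.419), and it overlaps exons of Rmc1 on the other strand.

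Of the 3 LXR genes with a row, Nr1h2 was called higher, Abca1 lower and Mylip was not called. Nr1h2, the gene of the receptor LXR-beta, went from 33.9 and 27.9 CPM in dexamethasone to 45.9 and 53.9, a log2 fold change of 0.67 (edgeR adjusted p = 0.024). With each library corrected for GC content and transcript length this value was -0.29. The call also ended in the fit of all 6 libraries (0.69, edgeR adjusted p = 0.0801). It ended too without dexamethasone replicate 1, dexamethasone replicate 2 or dexamethasone + EPC-EVs replicate 2, with log2 fold changes of 0.83, 0.55 and 0.57. Abca1, which exports cholesterol to apolipoprotein A-I (ENSMUSG00000015243.4, chr4:53030787-53159895, minus strand), had 3.62 and 1.0 CPM in control, 10.2 and 6.79 in dexamethasone and 2.75 and 1.39 in dexamethasone + EPC-EVs. The dexamethasone libraries, with 69 and 46 counts, lay above the other 4, which had 5 to 35 counts. The log2 fold change was -2.05 ± 0.565 (SE, n = 2 per group, edgeR adjusted p = 0.0135), and the call ended in the fit of all 6 libraries (adjusted p = 0.0614), without dexamethasone replicate 1 (-1.72, adjusted p = 0.113) and when replicate 2 of dexamethasone + EPC-EVs was left out (-1.62, adjusted p = 0.0741). Mylip, a ubiquitin ligase induced by LXR that marks lipoprotein receptors for degradation (ENSMUSG00000038175.10, chr13:45389742-45412022, plus strand), had 60.7 and 91.1 CPM in control, 122 and 101 in dexamethasone, and 104 and 96.9 in dexamethasone + EPC-EVs. The treated groups overlapped, with a log2 fold change of -0.17 ± 0.152 (SE, edgeR adjusted p = 0.408).

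Between dexamethasone and control, none of the 28 genes was called by edgeR, and 0.0155% of the 12879 genes tested were called higher and 0.0388% lower. Most values were nevertheless higher in dexamethasone. The log2 fold change was above 0 in 26 of the 28 genes and in 50.6% of all genes, with a median of 0.86 against 0.01 over all genes. An unadjusted p under 0.05 with a higher value in dexamethasone was found for 14 of the 28 genes and 5.61% of all, and with a lower value for 0, against 5.33%. Both dexamethasone libraries lay above both control libraries in 23 of the 28, against 22.6% of all genes. Srebf2 had the lowest adjusted p of the 28, with a log2 fold change of 1.59 ± 0.288 (SE, n = 2 per group, edgeR adjusted p = 0.109). With any 1 of the 4 libraries left out its adjusted p was at most 0.0272 and its log2 fold change ran from 1.18, without control replicate 2, to 2.20, without control replicate 1, in fits that take the spread of the single library left in a group from the other group. DESeq2, which gave an adjusted p to 13 of the 28 genes, called Cyp51, Sqle and Srebf2 higher, and 0.819% of all genes with an adjusted p.

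Among the enzymes, the log2 fold changes of dexamethasone over control were 1.33 ± 0.338 for Lss, 1.05 ± 0.236 for Cyp51, 1.01 ± 0.275 for Fdft1 and 0.95 ± 0.235 for Sqle (SE, edgeR adjusted p from 0.256 to 0.291). Fdps had 1.73 ± 1.45, on 9 and 0 counts in control. Sc5d and Insig2 were the only 2 of the 28 with values below 0, at -0.063 ± 0.237 and -0.12 ± 0.216. Abca1 had 1.84 ± 0.728 (SE, edgeR adjusted p = 0.41), and 3.06 without control replicate 1 (edgeR adjusted p = 0.00887). The control libraries differed from each other by more than the dexamethasone libraries did, at 17.1 against 7.22 in chi-square over its degrees of freedom, and the count of genes called depended on them. Without control replicate 1, 17 of the 28 were called higher, against 9.25% of all genes, and without control replicate 2 the count was 6, against 0.358%. Mvk, Acat2 and Hsd17b7 show the spread, with 11.4 and 1.0, 33.1 and 10.2, and 23.5 and 8.43 CPM in the control libraries.

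Against control, dexamethasone + EPC-EVs showed 24 of the 28 genes called higher and 0 called lower by edgeR, where 19.1% of the 13511 genes tested were called higher and 17.2% lower. The genes not called were Insig2, Npc1, Abca1 and Mylip. With each library corrected for GC content and transcript length 22 were called higher: Nr1h2 went from 1.55 to 0.07 on the log2 scale (edgeR adjusted p = 0.869) and Scap from 1.60 to 0.42 (edgeR adjusted p = 0.19). The call of Mvk ended with no low-count filter (4.23, edgeR adjusted p = 0.0599), and Mylip was called higher without control replicate 2 (0.73, edgeR adjusted p = 0.0268). The median log2 fold change was 2.43 over the 28 genes, 2.72 over the 18 enzymes, with a range of 1.47 to 5.17, and 0.02 over all genes. The top of that range was Fdps, which rests on 9 and 0 counts in control and went to 4.30 without control replicate 2 and to 11.2 without control replicate 1, where the remaining control is at 0 and the fitted value is no bound. Without control replicate 1 the fold change, taken off the log2 scale, moved by over 1.5 times in 8 of the 24 genes called higher. Without control replicate 2 it did so in 3. Srebf2 had 3.37 ± 0.315 (SE, n = 2 per group, edgeR adjusted p = 0.000332), which went to 4.01 without control replicate 1 and to 2.37 with the correction for GC content and transcript length, and Stard4 3.06 ± 0.225 (SE, edgeR adjusted p = 0.000144). Abca1, at -0.19 ± 0.980 (SE, edgeR adjusted p = 0.9), differed by less than its error. The 3 comparisons share libraries with each other, so their values, side by side in the plot of fold changes, are not independent.

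**Figure D3:**
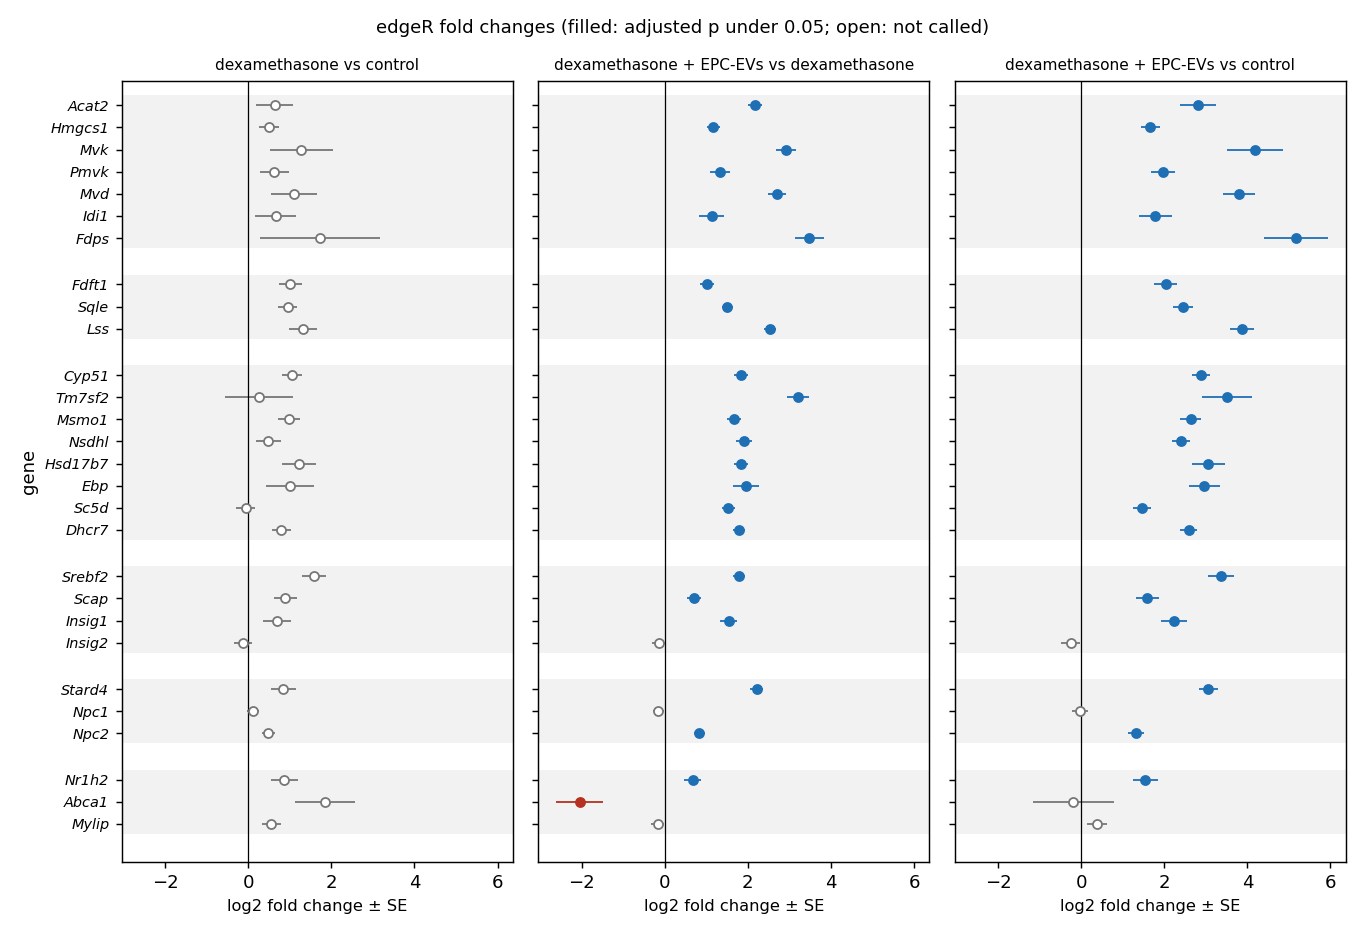
edgeR log2 fold changes with their standard errors for the 28 genes in the 3 comparisons, 2 libraries per group, filled where the adjusted p is under 0.05 and open where it is not. None is filled for dexamethasone over control, 25 are filled for dexamethasone + EPC-EVs over dexamethasone, with Abca1 the 1 below 0, and 24 for dexamethasone + EPC-EVs over control.

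Per length, the order of the genes changed across the groups. In deposited FPKM, Srebf2 was the eighth of the 28 genes in control at 10.6 ± 5.26 FPKM (SD, n = 2), the second in dexamethasone at 33.6 ± 5.96 and the first in dexamethasone + EPC-EVs at 112 ± 9.14. Mylip was the first in control at 23.0 ± 6.12 FPKM and the first in dexamethasone at 35.6 ± 4.75, and the sixteenth in dexamethasone + EPC-EVs at 30.7 ± 1.76. In control replicate 1, though, Mylip had 18.6 FPKM and lay below Insig2, Npc2 and Npc1, at 22.8, 20.9 and 19.5. The order rests on the gene lengths behind the deposited FPKM, such as 10725 bases for Npc1, against 5756 in its longest transcript. Srebf2 and Mylip in dexamethasone lay within 1 SD of each other. Cyp51, at 96.6 ± 4.57 FPKM, was next to Srebf2 in dexamethasone + EPC-EVs, and Insig2 went from the third to the eighth and the twenty-first place while its level went from 19.8 ± 4.17 to 19.3 ± 1.37 and 16.9 ± 0.276 FPKM. Abca1, at 0.197 ± 0.092 FPKM, was the lowest in dexamethasone + EPC-EVs, and Fdps, at 0.175 ± 0.247 and 0.632 ± 0.128, the lowest in control and dexamethasone, where Abca1, at 0.220 ± 0.179 and 0.843 ± 0.238, lay less than its own SD above Fdps.

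GC content differed among the 28 genes, and some calls ended under a correction for GC content and transcript length together, whose parts were not separated. The longest transcript was 60.6% GC in Nr1h2, 59.1% in Scap, 59.0% in Mvd, 57.9% in Srebf2 and 57.0% in Pmvk, and 41.9% in Idi1, against a median of 48.7% over genes. With each library corrected for GC and transcript length, 21 of the 28 genes were called higher with EPC-EVs than with dexamethasone alone, against 16.4% of all genes, and 1 lower, against 15.3%, and the median log2 fold change was 1.61. The calls of Scap, Nr1h2 and Pmvk ended, and 17 of the 18 enzymes kept theirs. Scap and Nr1h2 crossed 0, as the plot of both estimates shows.

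**Figure D4:**
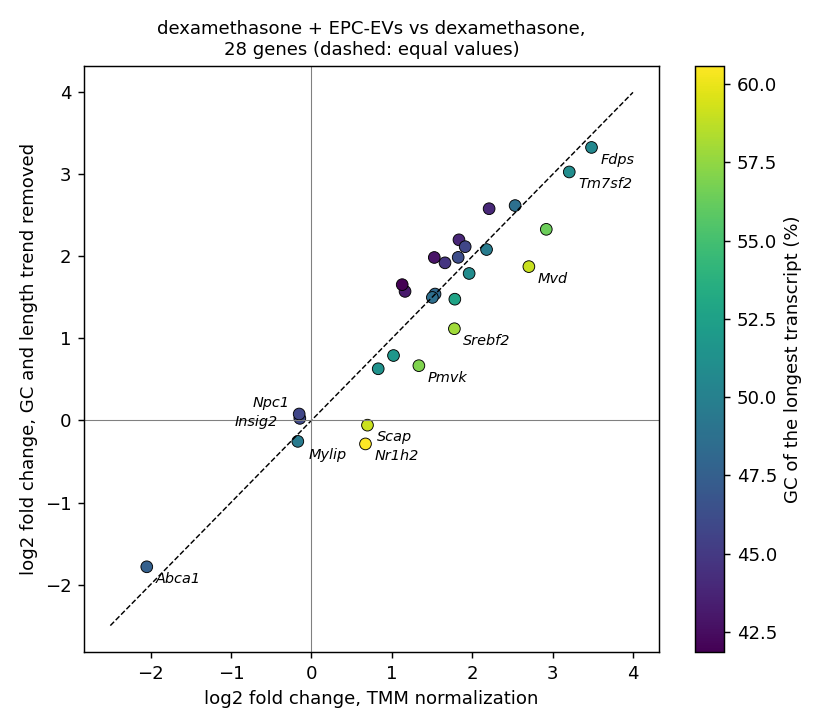
Log2 fold change of each of the 28 genes in dexamethasone + EPC-EVs over dexamethasone under TMM normalization (horizontal) and after correction of each library for GC content and transcript length (vertical), coloured by GC of the longest transcript, with equal values on the dashed line. Mvd, Srebf2 and Pmvk, at 57.0% GC or more, lie below the line and Idi1, at 41.9%, above it, and Scap and Nr1h2, at 59.1% and 60.6% GC, cross 0.

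Sterol genes outside the 28 were called in both directions. Of 56 listed, 52 were tested in dexamethasone + EPC-EVs against dexamethasone, and 13 were called higher, 9 lower and 30 not, with a median log2 fold change of -0.08, where 20.9% of all genes tested were called higher and 18.9% lower. Among the 14 genes of SREBP processing and sterol-regulated degradation, 3 were called higher and 4 lower. Mbtps2, the site-2 protease that releases SREBP, was lower by a log2 fold change of -1.41 and the COPII coat gene Sec24a by -1.27. Among 11 genes of the prenylation, ubiquinone and dolichol branches, which leave the pathway at farnesyl diphosphate, 0 were called higher and 1 lower, Nus1 (-0.79).

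Of all genes tested in dexamethasone + EPC-EVs against dexamethasone, 20.9% were called higher and 18.9% lower. Of 18 genes tested for sterol uptake, transport, esterification and oxidation, 5 were called higher and 4 lower. Among the 5 were Scarb1, the receptor for high-density lipoprotein, at 1.08, and the lysosomal carrier Stard3 at 1.44. The 4 called lower were Lipa, the lysosomal lipase that frees cholesterol from its esters (-1.29), Soat1, which makes the esters (-0.75), Osbpl8 (-1.32) and the oxysterol hydroxylase Cyp7b1 (-1.56). Of 9 tested LXR partners and targets, 5 were called higher and 0 lower, among them Lpcat3 at 2.37 and Abca7 at 1.52. The 9 genes of the fatty acid branch, Srebf1 and 8 enzymes, were all called higher, with a median of 1.39. Fasn, the fatty acid synthase, had 128 and 74.6 CPM in control, 278 and 197 in dexamethasone, and 1332 and 1425 in dexamethasone + EPC-EVs, or 2.52 over dexamethasone on the log2 scale. Between dexamethasone and control, 0 of 51 tested sterol genes outside the 28 were called by edgeR. Of all genes, 0.0155% were called higher and 0.0388% lower. At an unadjusted edgeR p under 0.05, 7 of the 51 were higher and 0 lower, against 5.61% and 5.33% of all genes. Scd2 was the 1 called gene of the 9 in the fatty acid branch.

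Markers of other cell types were compared beside these changes. Of 7 endothelial markers with a row, 6 lay under 10 CPM in every library, with Cdh5, Emcn and Tek at 0.46 CPM or less in the dexamethasone + EPC-EVs libraries, and the summed level, almost all Cd34, was 382 to 421 CPM in control, 366 to 374 in dexamethasone and 239 to 288 in dexamethasone + EPC-EVs. All 6 adipocyte markers lay under 10 CPM, with sums of 3.21 to 9.55, 4.43 to 11.8 and 3.48 to 5.43 CPM, and 3 markers of liver and steroid-making cells summed to at most 2.95 CPM. The 4 haematopoietic and macrophage markers summed to 15.2 to 18.3 CPM in control, 15.8 to 22.3 in dexamethasone and 40.1 to 84.5 in dexamethasone + EPC-EVs. In the last group Csf1r had 4.40 and 36.4 CPM and Cd14 24.1 and 32.8, and Adgre1 was at 0. Their part in the sterol gene values was not tested.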

How the data were processed

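RNA of MC3T3-E1 Subclone 14 cells was sequenced in 6 libraries, 2 per group, which were grouped by the treatment in the labels. The authors removed low-quality reads, aligned the rest to GRCm38 with HISAT2 and counted reads per gene with HTSeq 0.6.1, per the labels and the study's methods, and deposited these counts without normalization. The deposited FPKM of genes equal the count over a gene length and the library total in all 12992 genes with a count in every library, with a largest relative spread of 9.93e-15. Transcript FPKM were made by the authors with StringTie.

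Counts of the 4 libraries of each comparison were normalized with TMM, filtered with filterByExpr and tested with the quasi-likelihood test of edgeR 4.0.16 in R 4.3.3, with Benjamini-Hochberg adjustment across every gene tested and 0.05 as the limit of an adjusted p. The self-test on simulated counts with planted changes was run first. CPM use totals after TMM over the 6 libraries, and SDs are taken over the 2 libraries of each group. With 2 libraries per group the p-values measure only the spread between these libraries. Total counts are given with the first values, and limits for a count of 0 use 3 counts.

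Alternatives were RLE and upper-quartile normalization, DESeq2 1.42.0, other low-count filters, all 6 libraries in one fit, no robust dispersion, the threshold of the paper's methods, mitochondrially encoded genes left out, a loess trend (span 0.4) on GC content and transcript length removed, the replicate number as a block, and each library left out. Leaving out Gm26917 was added after seeing the data. Positions and overlaps are those of GENCODE vM21, similar copies had at least 90% identity over 150 bases, and promoter windows came from RefSeq.

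The genes, the lists and the alternatives were chosen with earlier results of these data known. In each role group, full statistics are given for the member with the largest and the member with the smallest absolute log2 fold change in dexamethasone + EPC-EVs against dexamethasone, and for members called in dexamethasone against control or called lower. Genes singled out beyond this rule were chosen after their values were seen. Some genes that the rule for the other sterol genes would name are not reported here. Blots, biochemical assays and bone imaging were not used here.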

Additional observations from a re-analysis of the deposited data

How the results depend on the processing

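The calls of the 28 genes between dexamethasone + EPC-EVs and dexamethasone kept their direction and side of the threshold in 429 of 448 gene-by-setting values, while 15 lost the call and 8 changed sign, 4 of them among the 15. With each library left out the number called higher ranged from 21 to 23 (12.1% to 18.2% of all genes) and lower from 0 to 1 (10.1% to 16.6%), and lower was 0 with all 6 libraries in one fit. The genes that changed sign did so with the GC and length trend removed, without and with the replicate block: Scap (-0.057 and -0.065), Insig2 (0.026 and 0.028), Npc1 (0.079 and 0.073) and Nr1h2 (-0.29 and -0.29). Other sterol genes called numbered 3 higher and 1 lower at the threshold of the paper's methods, which 7.05% of all genes passed higher and 7.13% lower.

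Between dexamethasone and control, where 0 of the 28 genes were called, the number higher was 7 with no low-count filter (0.604% of all genes), 3 with DESeq2 (0.819%), 1 with the GC and length trend removed (0.0621%), 2 at the threshold of the paper's methods (0.831%) and 1 to 17 with each library left out (0.0294% to 9.25%). Other sterol genes higher were 1 with no filter, 1 with the GC trend and block, and 0 to 7, and lower 0 to 2 (0.0367% to 6.8% of all), with each library left out. Sign changed for Tm7sf2 (-0.51 to 2.08 with each library left out, below 0 without control replicate 1 and without dexamethasone replicate 1), Sc5d (0.10 with the GC trend removed, 0.11 with the block as well, -0.27 to 0.21 with each library left out, above 0 without replicate 2 of either group) and Insig2 (-0.29 to 0.10 with each library left out, above 0 without control replicate 1). The replicate numbers were not found to pair the libraries (correlations of deviations of 0.0619, 0.00732 and 0.0114). With the replicate block 2 of the 28 genes were called higher (0.116% of all), and 8 with the GC trend removed as well (0.722%). The block changed no other call of the 28 genes under TMM.

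Between dexamethasone + EPC-EVs and control, 13 of 52 tested other sterol genes were called higher and 10 lower, against 19.1% and 17.2% of all genes. At the threshold of the paper's methods 9 were higher (11.2% of all) and 4 lower (9.52%). Sign changed for Npc1 (0.021 with no filter, 0.28 with the GC trend removed, 0.27 with the block as well, -0.16 to 0.12 with each library left out) and Abca1 (0.036 with the GC trend removed, 0.19 with the block as well, -0.80 to 1.06 with each library left out). The cause of these changes was not tested. With 5146760 to 13182014 counts per library, a count of 0 as for Fdps in control replicate 2 allows up to 0.602 CPM.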
